A study of Mus musculus with 12 samples.

Results

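Toll-like receptors, the co-receptors and chaperone they depend on, and their shared adaptor were followed across 12 libraries of tumour-associated macrophages (TAMs). The 10 genes were chosen by symbol, by a rule that uses no measured value but with earlier results of these data known. They comprise Tlr1, Tlr2, Tlr4, Tlr7, Tlr8 and Tlr13, the co-receptors Cd14 and Ly96, the chaperone Unc93b1 and the adaptor Myd88. The family's other members, Tlr3, Tlr5, Tlr6, Tlr9, Tlr11 and Tlr12, are not among the 10 and are described separately. They are 10 of 24781 rows of the count table, and all 10 passed the filter that left 9580 genes for testing. Wild-type mice bore MC38 tumours, which come from a mouse colon adenocarcinoma line, and received intraperitoneal injections of either picrotoxin, an antagonist of the GABA type A receptor, or of the solvent DMSO. Injections began on the day before the tumour cells were given and were repeated every other day. On day 7, 100 cells in the CD45+CD11b+F4/80high gate were sorted for each library, and 6 libraries were made per treatment. The comparison asks whether blocking this receptor in the whole animal alters transcripts of TAMs. Picrotoxin was given to the whole animal, so direct effects on TAMs and effects through other cells cannot be told apart. The study's methods assign 1 mouse to a library while its figure text gives fewer mice than libraries, so libraries were treated as independent and p-values would be too small if mice were shared.

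Toll-like receptors are membrane proteins that recognise molecules of microbes and of damaged cells. Tlr4 with Ly96 (MD-2) and Cd14 binds bacterial lipopolysaccharide at the cell surface, and Tlr2 pairs with Tlr1 or Tlr6 to bind lipopeptides. Tlr7, Tlr8 and Tlr13 sit in endosomes, detect RNA and need Unc93b1 to get there. All of these receptors signal through Myd88, which recruits the IRAK kinases and leads to NF-κB activity. Macrophages are among the cells best known for carrying them.

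Libraries held 201697 to 309617 molecules, and the 10 genes together supplied 278 to 446 molecules in DMSO and 359 to 469 in picrotoxin libraries. All 12 macrophage markers listed were detected, at 2071 to 3235 molecules per DMSO library and 2273 to 3099 per picrotoxin library. Of the other cell types, neutrophil markers summed to 4 to 10 molecules per library with S100a9, Ly6g, Retnlg and Ngp at 0 throughout, dendritic cell markers to 0 to 7 with Flt3, Cd209a and Klk1 at 0, and B cell markers to 0 to 3 with Ms4a1, Cd79a and Pax5 at 0. Monocyte markers summed to 221 to 383 molecules per library with none of 6 at 0 throughout, and MC38 epithelial markers to 8 to 21 with Epcam, Krt18, Krt19 and Cldn4 at 0. T and NK cell markers reached 22 molecules in picrotoxin library 6 and at most 2 elsewhere, with Cd3e, Cd3g, Cd8a and Gzma at 0. Fibroblast and matrix markers stood apart, with 17 to 813 molecules in DMSO and 9 to 59 in picrotoxin libraries, and with 11 of 12 markers detected and Fap at 0. The highest of these sums were 813, 218 and 146 molecules, in DMSO libraries 5, 3 and 6. In DMSO libraries 1 and 2, Tlr2 was lower and Tlr8 and Myd88 were higher than in DMSO libraries 3 to 6, without overlap. Among picrotoxin libraries all of these genes overlapped between the same numbers. Cd14 did not overlap there, with 173 to 175 normalised molecules in picrotoxin libraries 1 and 2 and 128 to 167 in picrotoxin libraries 3 to 6. The share of all genes that split in this way was not counted, and the labels give no reason for it.

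The sequences that bear on how these genes can be told apart or compared are given first. Tlr1 and Tlr6 lie near each other on the minus strand of chromosome 5, and of the 50-base windows of the longest coding transcript of Tlr1 15.3% also occur in a transcript of another gene, which for this transcript is 1 gene, Tlr6. The windows of the main transcripts of the other 9 genes had no such match. The longest identical stretch is 229 bases, lies within the coding sequence of 1 exon in both genes, and ends 858 bases before the end of the Tlr1 transcript. In GRCm38 it is at chr5:64925537-64925765 in Tlr1 and at chr5:64953828-64954056 in Tlr6. It is shown here with 15 bases of Tlr1 on either side, with capitals for the identical stretch and in the sense of the mRNA.
Tlr1: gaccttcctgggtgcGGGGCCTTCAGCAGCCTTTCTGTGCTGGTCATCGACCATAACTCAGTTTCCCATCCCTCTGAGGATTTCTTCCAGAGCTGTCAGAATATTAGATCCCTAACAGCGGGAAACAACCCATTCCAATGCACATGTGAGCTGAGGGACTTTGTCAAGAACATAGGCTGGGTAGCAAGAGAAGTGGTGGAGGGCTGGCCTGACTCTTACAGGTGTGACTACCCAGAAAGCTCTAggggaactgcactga
A read within the capitals cannot be assigned to one of the pair, and how the authors counted such reads is not given in the sources used here.

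Regions before the start were available from RefSeq (GRCm38.p6) for 5 of the 10 genes, and 3 of the 5 held the letters GAGGAA on either strand within 250 bases of the start. These letters are the core of the site bound by PU.1, a transcription factor of macrophages, and 23.3% of 32851 such windows of the genome's genes hold them. The 3 windows, of 6 in all, belong to Tlr13, Tlr1 and Tlr8. They are shown without the bases that GENCODE places in an exon, 5′ to 3′ on the strand of the gene, with GAGGAA or its reverse complement in capitals. They span chrX:106143025-106143203 for Tlr13 (plus strand), chr5:64933564-64933808 for Tlr1 (minus strand) and chrX:167264330-167264579 for Tlr8 (minus strand).
Tlr13: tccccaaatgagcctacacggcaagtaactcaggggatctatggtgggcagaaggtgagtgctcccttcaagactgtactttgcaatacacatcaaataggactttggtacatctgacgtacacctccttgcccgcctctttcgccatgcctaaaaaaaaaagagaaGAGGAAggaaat
Tlr1: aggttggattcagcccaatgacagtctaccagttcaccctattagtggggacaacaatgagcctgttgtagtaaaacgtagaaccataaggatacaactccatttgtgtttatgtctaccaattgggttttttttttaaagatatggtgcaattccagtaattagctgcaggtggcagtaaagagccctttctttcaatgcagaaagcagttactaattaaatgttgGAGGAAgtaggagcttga
Tlr8: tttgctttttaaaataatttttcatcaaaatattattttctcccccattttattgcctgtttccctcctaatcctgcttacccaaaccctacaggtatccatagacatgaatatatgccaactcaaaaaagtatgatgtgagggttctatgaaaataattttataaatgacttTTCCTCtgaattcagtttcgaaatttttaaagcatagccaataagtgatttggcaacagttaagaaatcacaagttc
A second Tlr1 window, and the windows of Tlr2 and Myd88, did not hold these letters. TGANTCA, the letters of an AP-1 site, was found on neither strand of the 6 windows, against 6.75% of all windows. GAAANNGAA, as in sites of interferon regulatory factors, occurred before Tlr8 and Myd88 (7.13% of all windows), as did TATAAA (12.4%), whose matches overlap each other in both genes. The match to GAGGAA overlapped none of these. A match of letters is not evidence that a factor binds.

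The 10 genes differed widely in level. To compare genes, counts were expressed as CPM (molecules scaled to an equal total per library) per kb of annotated exon, averaged over the 12 libraries. Cd14, a surface protein that hands lipopolysaccharide to Tlr4, had the highest level at 362 ± 57.8 CPM per kb (SD, n = 12), followed by Unc93b1 at 161 ± 30.3. Tlr2 had 61.0 ± 6.51 and Myd88 had 35.6 ± 6.05. For these 4 genes, the range over libraries did not meet that of the next gene in the order. The lowest value of Myd88, 26.9, was however below the highest of Tlr8, 27.9. Below them came Tlr13 at 19.3 ± 4.94, Tlr8 at 16.4 ± 5.28, Tlr4 at 14.0 ± 4.72, Tlr1 at 10.7 ± 4.17, Tlr7 at 6.36 ± 2.54 and Ly96 at 5.57 ± 5.61 CPM per kb, and in this lower part each range overlapped that of the next gene. Tlr2 was thus the receptor with the highest level and lay above Tlr13 in 12 of 12 libraries. Within pairs that work together, the level of Tlr1 per kb was 0.0777 to 0.360 times that of its partner Tlr2, and that of Ly96 was 0 to 0.777 times that of Tlr4. Cd14 was 15.7 to 60.9 times Tlr4 per kb. All 10 genes kept their place with the DMSO libraries alone, but with coding length in place of exon length 3 of 10 kept it: Cd14, Unc93b1 and Tlr1. The oligo-dT primer favours the 3′ end, so length does not scale counts evenly between genes.

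**Figure D1:**
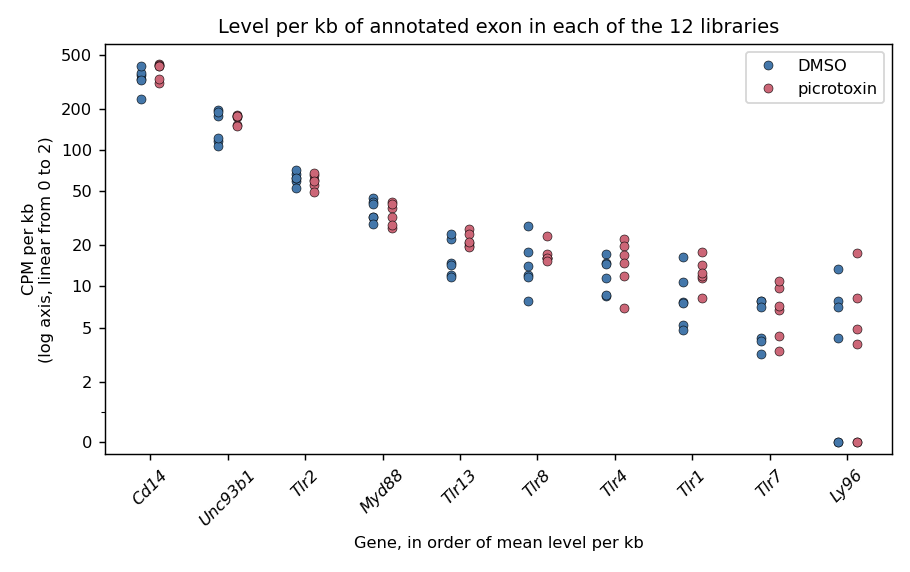
Level of each gene in CPM per kb of annotated exon (vertical axis, logarithmic above 2 and linear below) with genes in order of their mean (horizontal axis) and 1 point per library, blue for DMSO and red for picrotoxin. Points of Cd14, Unc93b1 and Tlr2 form separate bands. Those of Myd88 lie above those of Tlr13, the next gene, but the lowest lies below the highest of Tlr8. Those from Tlr13 to Ly96 overlap with their neighbours.

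Against DMSO, picrotoxin libraries had the higher fitted level for 8 of the 10 genes and the lower for 2, and no gene passed after adjustment over all tested genes. The smallest p-values belonged to Tlr13, a receptor for bacterial ribosomal RNA, and to Tlr1, with Cd14 just short of 0.05 before adjustment, while Tlr2 and Myd88 had nearly equal means in the groups. Counts were 0 of 10 at an adjusted p under 0.05 in the edgeR quasi-likelihood test, and likewise 0 in limma-voom and among those for which DESeq2 gave an adjusted p. Over all tested genes edgeR called 0.0522% after adjustment. Before adjustment 2 of 10 had p under 0.05, both higher with picrotoxin, where 7.72% of all tested genes had such a p, 3.67% higher and 4.05% lower. Limma-voom gave 3 of 10 before adjustment, beside 743 of all 9580 tested genes. By the rule of the study, a DESeq2 Wald test at an unadjusted p under 0.05, 0 of 10 passed, against 3.82% of all tested genes. A higher fitted level with picrotoxin was found for 49.3% of all tested genes. The median log2 fold change of the 10 genes was 0.25, beside -0.0052 over all tested genes. None of the 10 had groups without overlap between libraries, as 0.386% of tested genes did. In pools of sorted cells, fewer cells that carry a transcript and less of it per cell cannot be told apart.

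**Figure D2:**
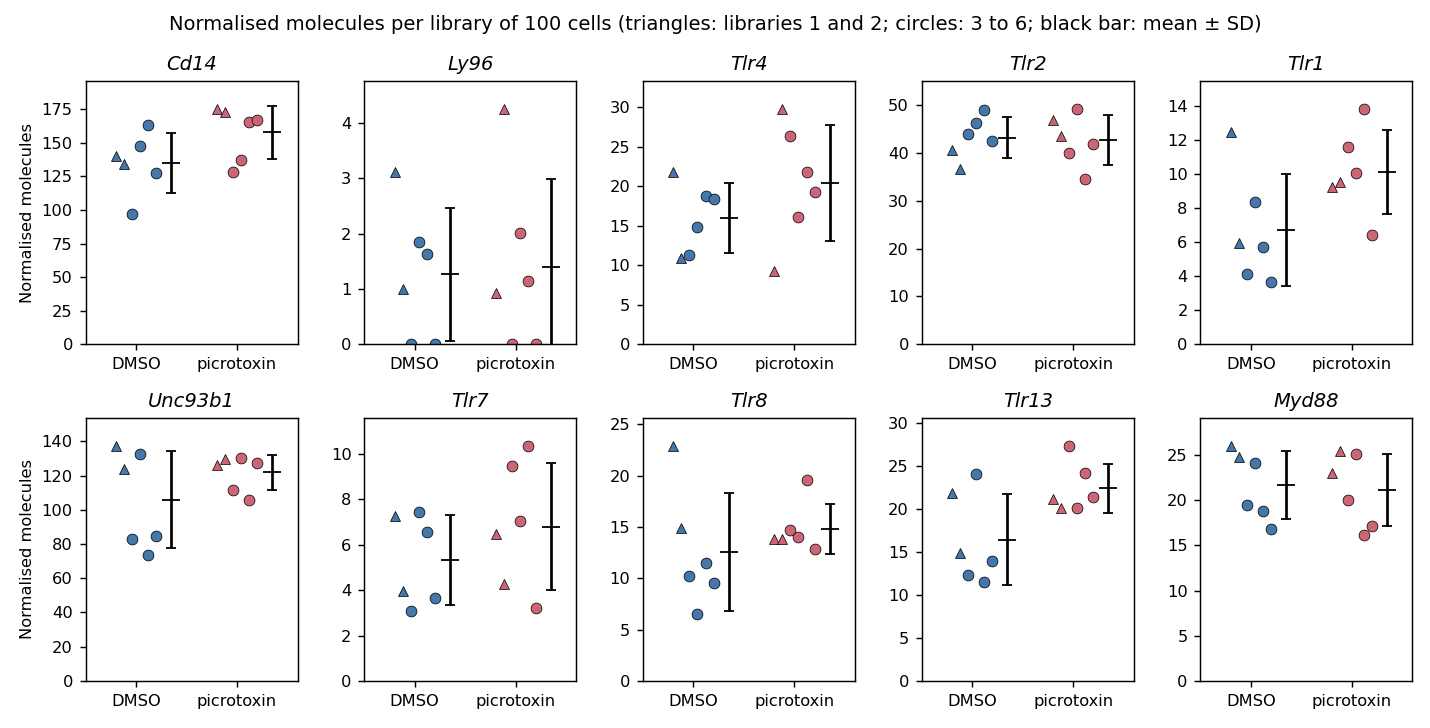
Normalised molecules of each gene (vertical axes, from 0) in the 6 DMSO (blue) and 6 picrotoxin (red) libraries, triangles for libraries numbered 1 and 2, circles for 3 to 6, and black bars for the mean and SD, cut at 0 for Ly96. The picrotoxin points of Tlr13 lie between 20.1 and 27.3, above 4 of the 6 DMSO points, and groups overlap in all panels.

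At the cell surface, Cd14 ranged from 97.3 to 164 normalised molecules in DMSO libraries (median 137) and from 128 to 175 in picrotoxin libraries (median 166). DMSO library 3 was lowest, and the groups overlapped, although 5 of 6 libraries from picrotoxin-treated mice exceeded the mean of the DMSO group. The means were 135 ± 22.3 and 158 ± 19.8 normalised molecules (SD, n = 6 each). The log2 fold change was 0.23 ± 0.12 (SE), with an adjusted p of 0.649 (unadjusted 0.0511) in edgeR and an exact permutation p of 0.0952, two-sided. Without one of DMSO libraries 1, 4 or 5 or picrotoxin libraries 3 or 4, the unadjusted p was under 0.05, between 0.0194 and 0.0494, with log2 fold changes up to 0.29. In the other 7 fits that left out 1 library it was not, and the log2 fold change was lowest without DMSO library 3, at 0.14 (unadjusted p of 0.204). Cd14 had at least 95 molecules in each library, and its spread within groups was 3.17 times counting noise (chi-square per degree of freedom, where 1 is what counting alone would give).

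Ly96, the small protein that holds lipopolysaccharide in the Tlr4 complex, was near the limit of detection, with 8 molecules in all DMSO and 8 in all picrotoxin libraries. It ranged from 0 to 3.12 normalised molecules in DMSO (median 1.31) and from 0 to 4.25 with picrotoxin (median 1.04). It was at 0 in libraries 3 and 6 of both groups, which allows shares of up to 0.00137% there, a limit that covers counting error only. The log2 fold change of 0.18 had a 95% interval from -1.43 to 1.79, so a difference was not detectable at this depth.

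Tlr4 itself ranged from 10.9 to 21.8 normalised molecules in DMSO (median 16.6) and from 9.22 to 29.7 with picrotoxin (median 20.6). Picrotoxin libraries 1 and 2 gave both the lowest and the highest value, and the groups overlapped. A log2 fold change of 0.33 ± 0.23 (SE) was fitted, with a 95% interval from -0.14 to 0.80 and an adjusted p of 0.790 in edgeR. It depended on the same libraries, at 0.19 without picrotoxin library 2 (unadjusted p of 0.439) and 0.48 without picrotoxin library 1 (unadjusted p of 0.0345), the lowest and highest values when 1 library was left out.

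Tlr2 ranged from 36.7 to 49.1 normalised molecules in DMSO (median 43.3) and from 34.5 to 49.2 with picrotoxin (median 42.7). The ranges nearly coincided, with 3 of 6 picrotoxin values over the mean of DMSO, and the spread was 0.536 times counting noise. The fitted log2 fold change was -0.0047, with a 95% interval from -0.28 to 0.27, and its sign turned in several other fits.

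Its partner Tlr1 ranged from 3.66 to 12.5 normalised molecules in DMSO (median 5.84) and from 6.43 to 13.8 with picrotoxin (median 9.79). DMSO library 1 was the highest of its group, 5 of 6 picrotoxin values exceeded the mean of DMSO, and the groups overlapped. The means were 6.71 ± 3.28 and 10.1 ± 2.47 normalised molecules (SD, n = 6 each), from 43 and 58 molecules in all. In edgeR the log2 fold change was 0.62 ± 0.30 (SE), with an unadjusted p of 0.0451 (adjusted p of 0.629), while the exact permutation p was 0.0758. The unadjusted p stayed under 0.05 in 3 of the 12 fits that left out 1 library, namely those without DMSO library 1, DMSO library 4 or picrotoxin library 6, and the log2 fold change ran from 0.47 to 0.87. Tlr6 had the opposite sign, from 21 molecules in DMSO and 12 with picrotoxin in all and a log2 fold change of -0.57 (95% interval -1.63 to 0.49). Because of the stretch shown above, both genes were also counted as 1, a fit added once the values were known. The means of that sum were 9.86 ± 3.92 in DMSO and 12.2 ± 2.41 normalised molecules with picrotoxin (SD, n = 6 each). For that sum edgeR gave a log2 fold change of 0.33 ± 0.26 (SE), with an unadjusted p of 0.218 (adjusted p of 0.823), where adjusted p-values of Tlr1 ran from 0.347 to 0.947 over the alternatives.

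Tlr13 (chrX:106143204-106160493, plus strand, GRCm38) was the endosomal receptor with the highest mean. It ranged from 11.5 to 24.1 normalised molecules in DMSO (median 14.4) and from 20.1 to 27.3 with picrotoxin (median 21.3). DMSO libraries 1 and 4, at 21.8 and 24.1, lay within the picrotoxin range and the other 4 DMSO libraries lay below it, so that 6 of 6 picrotoxin values exceeded the mean of DMSO. The means were 16.4 ± 5.27 and 22.4 ± 2.84 normalised molecules (SD, n = 6 each). This is a log2 fold change of 0.47 ± 0.20 (SE), with an unadjusted p of 0.0264 in edgeR (adjusted p of 0.567), and the exact permutation p was 0.0411. It stayed under 0.05 before adjustment in 8 of the 12 fits that left out 1 library, and the log2 fold change ran from 0.37 to 0.60 over the 12. The exceptions were DMSO libraries 3, 5 and 6 and picrotoxin library 3, with p between 0.0601 and 0.0781.

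Tlr8, an RNA receptor whose gene neighbours Tlr7 on the X chromosome with 40599 bases between them, ranged from 6.49 to 22.9 normalised molecules in DMSO (median 10.8) and from 12.9 to 19.6 with picrotoxin (median 13.9). DMSO libraries 1 and 2 were the highest of their group, at 22.9 and 14.9, and the other 4 DMSO libraries, at 6.49 to 11.5, lay below all 6 picrotoxin libraries. Over all libraries the log2 fold change was 0.27 ± 0.25 (SE), with an adjusted p of 0.862 in edgeR. Among libraries 3 to 6 alone it was 0.70, with an unadjusted p of 0.0203 (adjusted p of 0.407), where adjusted p-values ran from 0.407 to 0.971 over the alternatives. Over the fits that left out 1 library it ran from 0.13 without DMSO library 4 (unadjusted p of 0.598) to 0.50 without DMSO library 1 (unadjusted p of 0.0437), and it was 0.18 without DMSO libraries 3 and 5 and 0.14 with matrix markers as a covariate.

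Tlr7 had fewer molecules than its neighbour, 35 in all DMSO and 39 in all picrotoxin libraries. It ranged from 3.07 to 7.42 normalised molecules in DMSO (median 5.26) and from 3.21 to 10.4 with picrotoxin (median 6.74). The groups overlapped over most of their range, and the spread was 0.926 times counting noise. Between groups the log2 fold change was 0.35, with a 95% interval from -0.34 to 1.04 and an adjusted p of 0.869 in edgeR. It ran from 0.21 without picrotoxin library 5 to 0.49 without picrotoxin library 6 when 1 library was left out.

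Unc93b1 (chr19:3935186-3949340, plus strand, GRCm38) escorts the endosomal receptors out of the endoplasmic reticulum. It ranged from 73.6 to 137 normalised molecules in DMSO (median 105) and from 106 to 130 with picrotoxin (median 127). The DMSO libraries were spread over a wider range, with 124 to 137 in libraries 1, 2 and 4 and 73.6 to 85.0 in libraries 3, 5 and 6, the latter below all picrotoxin libraries. The means were 106 ± 28.4 and 122 ± 10.5 normalised molecules (SD, n = 6 each). Spread within groups was 4.66 times counting noise, the highest of the 10 genes. For Unc93b1 edgeR gave a log2 fold change of 0.22 ± 0.14 (SE), with an adjusted p of 0.755. Leaving out 1 library gave 0.13 without DMSO library 5 (unadjusted p of 0.329), 0.15 without DMSO library 3 and 0.16 without DMSO library 6. It gave 0.31 without DMSO library 1 and 0.29 without DMSO library 4, with unadjusted p of 0.0263 and 0.0443. The value was 0.37 in libraries 3 to 6 alone (unadjusted p of 0.0174).

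The adaptor Myd88 ranged from 16.8 to 26.0 normalised molecules in DMSO (median 21.8) and from 16.1 to 25.5 with picrotoxin (median 21.5). The ranges nearly coincided and the spread was 0.730 times counting noise. Its log2 fold change was -0.0011, with a 95% interval from -0.39 to 0.39, and its sign turned in several other fits. Myd88 (chr9:119335934-119341411, minus strand, GRCm38) overlaps Slc22a14 on its own strand and Acaa1a on the other, and the sources used here do not say whether counting used strand.

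**Figure D3:**
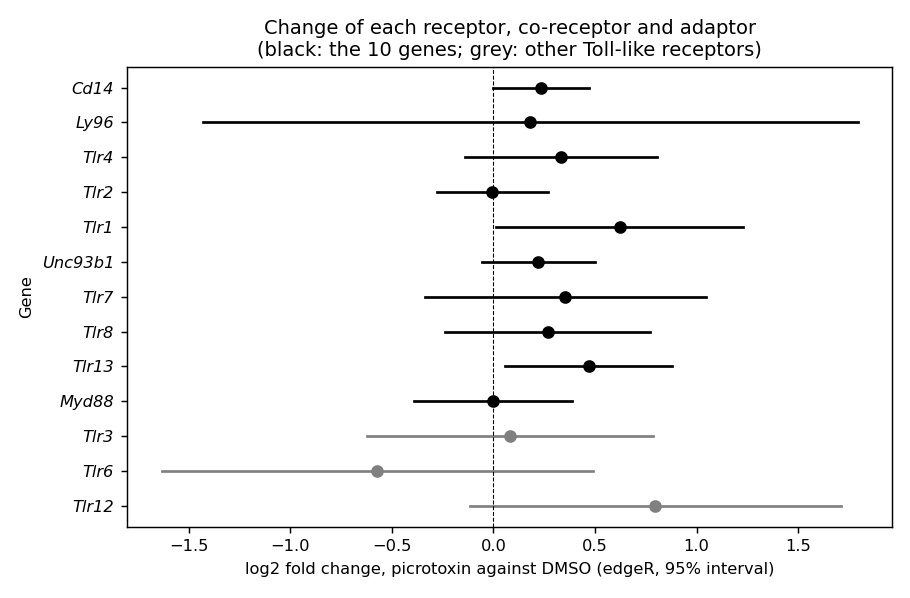
Log2 fold change of picrotoxin against DMSO (horizontal axis) with its 95% interval from edgeR for the 10 genes (black) and the 3 other Toll-like receptors that were tested (grey). The intervals of Tlr1 and Tlr13 lie above 0 before adjustment, and that of Ly96 runs from -1.43 to 1.79.

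The DMSO libraries richest in matrix transcripts were also those with the lowest Unc93b1. Libraries 5, 3 and 6 had 813, 218 and 146 molecules of fibroblast and matrix markers, and Tlr13 stood at 11.5, 12.3 and 13.9 normalised molecules there, against 14.9 to 24.1 in the other DMSO libraries. Tlr1 was at 5.73, 4.10 and 3.66 normalised molecules in the same libraries, against 5.96 to 12.5. When DMSO libraries 3 and 5 were left out, 0 of 10 genes had an unadjusted p under 0.05 in edgeR, and log2 fold changes were 0.28 for Tlr13, 0.46 for Tlr1, 0.039 for Unc93b1 and 0.21 for Cd14. With the mean log2 CPM of the matrix markers as a covariate they were 0.25, 0.44, 0.023 and 0.26. In that edgeR fit only Cd14 had an unadjusted p under 0.05, at 0.0398. Each marker has equal weight in this mean, unlike in the sums of molecules above. The difference of Unc93b1 was near 0 in both fits. Matrix markers ran from 17 to 813 molecules in DMSO and from 9 to 59 in picrotoxin libraries. The covariate and the treatment therefore cannot be fully told apart. The other fit left out DMSO libraries with some of the lowest Unc93b1 values. The difference of Cd14 was 0.14 without DMSO library 3 alone and 0.29 without DMSO library 5 alone. Its value of 0.21 without both thus combines shifts in opposite directions. The part of the matrix transcripts in these results was not tested further.

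Over the 7 genes with a mean of at least 10 normalised molecules, deviations from the group mean were compared between genes in 21 pairs, and 0 pairs had an adjusted p under 0.05. Unc93b1 and Myd88 had the highest correlation over the 12 libraries, with Pearson's r of 0.747 (permutation p of 0.0107, adjusted 0.225) and Spearman's rho of 0.741 (permutation p of 0.00504, adjusted 0.106). Without the 2 libraries farthest from the median r was 0.716, and within the 8 libraries numbered 3 to 6 it was 0.647. Libraries numbered 1 and 2 were too few for a value of their own. Tlr2 and Tlr8 had the most negative correlation over the 12 libraries, with r of -0.551 (permutation p of 0.0421, adjusted 0.442). Their rho was -0.483 (permutation p of 0.103, adjusted 0.684), and r was -0.393 without the 2 farthest libraries and -0.415 within libraries 3 to 6. Other pairs were the extremes within libraries 3 to 6, where no p-value was computed. There r was -0.899 for Tlr8 and Unc93b1 (0.185 over the 12 libraries) and 0.738 for Tlr13 and Unc93b1 (0.685 over the 12).

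Of all 3740 other genes with a mean of at least 10, the most alike to each gene by Pearson's r over the 12 libraries are given as a description. They are the highest of 3740 values over only 12 libraries, which also share their depth. How high such a maximum would be between unrelated genes was not tested. Unc93b1 was most like Ptprc, which encodes CD45 (r of 0.915), and Arhgdib (0.895). Tlr8 was most like Zfp991 (r of 0.928) and Pdia6 (0.921), and Tlr13 like Tbc1d10b (0.898) and Pip4k2a (0.847). Cd14 was most like Ociad1 (r of 0.894) and Jarid2 (0.891), and Tlr4 like Lsm6 (0.864) and Ubqln1 (0.862). Tlr2 was most like Hnrnpab (r of 0.838) and Sec13 (0.828), and Myd88 like Rpl13a (0.885) and Samd4b (0.875).

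The remaining Toll-like receptors had few molecules. Tlr3, a receptor for double-stranded RNA, had 40 molecules in all DMSO and 37 in all picrotoxin libraries, with a log2 fold change of 0.080 (95% interval -0.62 to 0.78). Tlr12, which in mice acts with Tlr11 on protozoan profilin, ranged from 0 to 7.28 normalised molecules in DMSO and from 2.01 to 10.1 with picrotoxin. Its log2 fold change was 0.80 (95% interval -0.12 to 1.71), with an adjusted p of 0.734 in edgeR. Tlr5, the flagellin receptor, had 2 molecules in all 12 libraries, Tlr9, the receptor for CpG DNA, had 4, and Tlr11 had 1, so these 3 were not tested. Thus 3 of 6 were tested and 0 had a p under 0.05.

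Other genes of the pathway were grouped by role, as 8 lists that include the remaining receptors. Of 111 genes listed, 101 were tested, 65 with a higher and 36 with a lower fitted level. Of these, 8 higher and 2 lower had an unadjusted p under 0.05 and 0 passed after adjustment in edgeR. Of all tested genes 7.72% had such an unadjusted p, 3.67% higher and 4.05% lower, and 49.3% had a higher fitted level. The counts given for single lists below stand beside the same shares. The median log2 fold change of the 101 genes was 0.080, against 0.25 for the 10 genes and -0.0052 for all tested genes.

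Among other co-receptors and chaperones, 0 of 11 tested genes had an unadjusted p under 0.05. The most abundant were the proteases Ctss and Ctsb, which process endosomal receptors, with log2 fold changes of 0.18 and 0.14. Among adaptors and proximal kinases, 2 of 21 had an unadjusted p under 0.05, both higher. Ticam2, which bridges Tlr4 to the adaptor TRIF, ranged from 0.732 to 2.98 normalised molecules in DMSO and from 1.84 to 7.36 with picrotoxin. It rested on 10 and 24 molecules in all, with a log2 fold change of 1.40 ± 0.51 (SE) and an adjusted p of 0.429. Irak2, a kinase of the Myd88 complex, had a log2 fold change of 0.61 (adjusted p of 0.620). The most abundant of this list, Tab2 and Irak1, had 0.17 and -0.11.

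Of 10 transcription factors, 2 had an unadjusted p under 0.05, both higher. Irf8, a regulator of macrophage genes that responds to these receptors, had means of 121 ± 27.3 and 157 ± 16.6 normalised molecules (SD, n = 6 each). In edgeR its log2 fold change was 0.39 ± 0.13 (SE), with an unadjusted p of 0.00423 (adjusted p of 0.340). Atf3, which restrains cytokine genes, had 0.28 (adjusted p of 0.620), and Fos, the most abundant, had 0.20.

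Of 15 negative regulators tested, Trem2, a lipid receptor that dampens signalling, was higher by 0.32 on the log2 scale (unadjusted p of 0.0455, adjusted p of 0.633 in edgeR). Il1rl1, the IL-33 receptor, had a log2 fold change of -1.39 (adjusted p of 0.620) from 35 molecules in DMSO and 11 with picrotoxin. DMSO library 5, the richest in matrix transcripts, held 19 of the 35, and the group medians were 2.95 and 2.58 normalised molecules. Tyrobp and Dusp1, the most abundant, had 0.055 and 0.23. Of 10 other sensors of nucleic acids, 0 had an unadjusted p under 0.05, and the most abundant, Ifi204 and Tmem173 (STING), had log2 fold changes of 0.064 and -0.053. This list had a median of -0.073 and was the only one of the 8 with a median below 0.

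Of 13 other pattern receptors tested, 2 C-type lectin receptors had an unadjusted p under 0.05, in opposite directions. Clec7a (Dectin-1), the β-glucan receptor, had means of 119 ± 11.3 and 155 ± 44.2 normalised molecules (SD, n = 6 each). Its log2 fold change was 0.39 ± 0.14 (SE), with an adjusted p of 0.409 in edgeR. Clec4n (Dectin-2), a receptor for mannans, had means of 35.9 ± 7.47 and 26.2 ± 5.68 normalised molecules (SD, n = 6 each). Its log2 fold change was -0.44 ± 0.17 (SE), with an adjusted p of 0.493. Pycard, an inflammasome adaptor and the second most abundant, had 0.078.

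Of 18 tested genes known to be induced through these receptors, 2 had an unadjusted p under 0.05. Nos2, inducible nitric oxide synthase, had a log2 fold change of 0.65 ± 0.25 (SE; adjusted p of 0.481), and Nfkbiz, an NF-κB cofactor, had 0.37 ± 0.14 (SE; adjusted p of 0.469). The most abundant cytokine genes, Il1b and Cxcl10, had log2 fold changes of 0.11 and -0.15, and the median of the list was 0.069.

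**Figure D4:**
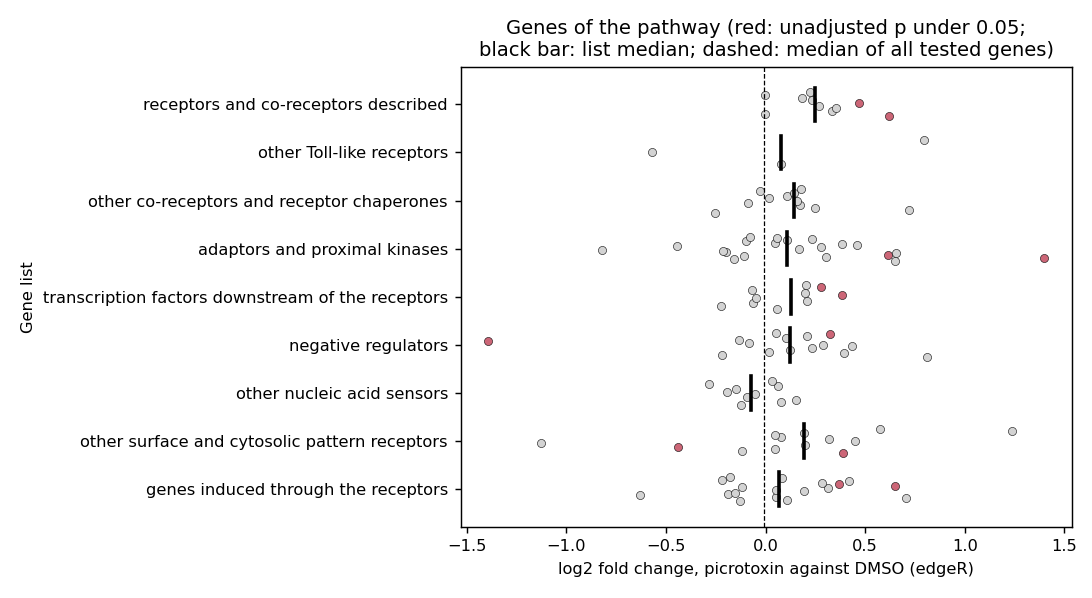
Log2 fold change of picrotoxin against DMSO (horizontal axis) for every tested gene of the 9 lists (vertical axis), 1 point per gene, red where the unadjusted p was under 0.05, with black bars for list medians and a dashed line for all tested genes. The medians run from -0.073 for the other nucleic acid sensors to 0.25 for the 10 genes described.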

How the data were processed

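The authors deposited counts of molecules per gene symbol for 12 libraries, as whole numbers that were not normalised. Per the labels and the study's methods, RNA of 100 sorted cells was copied with barcoded oligo-dT primers, reads were mapped with STAR to mm10, and refFlat was the annotation. Handling of multimapping reads and of strand is not given in the sources used here. The 10 genes, the lists, the rule for named genes and the tests were chosen with earlier results of these data known.

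Genes with a mean above 1 normalised molecule were tested (9580 of 24781 rows, 10966 of which were 0 throughout). The test was edgeR 4.0.16 quasi-likelihood with TMM, on R 4.3.3, and p-values were adjusted by Benjamini-Hochberg across the tested genes. The SE is the log2 fold change divided by the root of F. DESeq2 1.42.0 and limma-voom (limma 3.58.1) were alternatives. Normalised molecules are counts divided by DESeq2 size factors, with all libraries in 1 scaling. Exact permutation tests used all 924 assignments of libraries. The pathway genes named are the 2 most abundant of each list and each with an unadjusted p under 0.05. Likeness used log2 CPM (prior count 2) minus the group mean. Positions are from GENCODE M21. The code was tested on simulated counts. The value of 1 marker gene is not reported here.

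Same-numbered libraries were not treated as pairs: their deviations correlated between -0.0156 and 0.0462, with 0 of 6 over 0.1. Such correlations include counting noise, so they cannot show whether libraries shared a mouse. The 30 pairs of libraries within a group differed by 1.23 to 3.15 times counting noise, so none was a copy. Library totals of 201697 to 309617 let a count of 0 stand for a share of up to 0.00149% in the smallest library (3 molecules). Alternatives changed scaling, filter, test, block, libraries, a matrix covariate and gene length.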

Additional observations from a re-analysis of the deposited data

Results flagged for a closer look

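Tlr8 in picrotoxin library 5 stood at 19.551 normalised molecules, apart from the other picrotoxin libraries at 12.9 to 14.7, by a gap past the 95% limit of Dixon's test. This was 1 of 26 tests of Toll-like receptor genes in groups of 6, where chance would give about 1.3.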

How the results depend on the processing

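After adjustment, 0 of the 10 genes had p under 0.05 under all alternatives run, and Tlr1, Tlr4, Tlr7, Tlr8, Tlr13, Cd14 and Unc93b1 kept a positive log2 fold change in each. The count with an unadjusted p under 0.05 (2) became 1 with library totals alone, 1 with a mean above 10 (fewer genes), 0 in DESeq2, 4 with libraries 3 to 6 alone, 0 without DMSO libraries 3 and 5, 1 with the matrix covariate, and 0 to 5 when leaving out 1 library (0 without DMSO library 3 or 6, 5 without DMSO library 1, 4 without DMSO library 4, and 1 without DMSO library 2 or 5 or picrotoxin library 2, 3 or 5). By the rule of the study the count of 0 became 2 with the unadjusted edgeR test and 0 to 3 when leaving out 1 library (3 without DMSO library 1, and 1 without DMSO library 4 or 5 or picrotoxin library 3 or 4). The number of all genes with an adjusted p under 0.05 (5) was 14 with library totals, 81 with every gene counted at least once, 3 in limma-voom, 27 with libraries 1 and 2 against 3 to 6 as a term, 48 in libraries 3 to 6 alone, 1 without DMSO libraries 3 and 5, 0 with the matrix covariate, and 0 to 25 when leaving out 1 library. With an unadjusted p under 0.05 it was 740, against 746 with library totals, 397 with a mean above 10 and 366 in DESeq2. It was 929 in libraries 3 to 6 alone, 511 without DMSO libraries 3 and 5, and 556 with the matrix covariate. Leaving out DMSO library 1, 2, 3, 4, 5 or 6 gave 790, 831, 622, 788, 609 or 628. Counts among the 10 genes stand beside these numbers, although the number of genes tested can differ between fits. The replicate block used a number that is not known to pair the libraries. It gave 43 genes after and 742 before adjustment, and of the 10 genes 0 after and 3 before adjustment. The median of all tested genes was -0.0052 with TMM, -0.017 with DESeq2 size factors and -0.061 with library totals.

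Log2 fold changes near 0 turned sign: Myd88 was 0.0063 in limma-voom and 0.021 in libraries 3 to 6 alone, and Tlr2 was 0.044 without DMSO libraries 3 and 5 and 0.059 with the matrix covariate. When leaving out 1 library, Tlr2 ran from -0.052 to 0.048, Myd88 from -0.075 to 0.062 and Ly96 from -0.49 to 0.59. The order of levels kept 3 of 10 places with coding length. The cause was not tested. Depth limits Ly96 most, at 16 molecules in all libraries, then Tlr7 at 74 and Tlr1 at 101.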
